A study of Caenorhabditis elegans with 4 samples.

Results

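The comparison is of worms of 1 strain, the ent-1KO deletion mutant, on 2 diets. One library came from day 1 adults of ent-1KO fed HT115 bacteria that carry the empty vector L4440, and 1 from day 1 adults of ent-1KO fed HT115 bacteria that make double-stranded RNA against ent-2, here ent-1KO;ent-2KD. Both carry the same CRISPR deletion of ent-1, ent-1(rax74), kept as 1 line, and differ in the RNAi food. They were chosen by their labels, with all deposited barcodes. Together they hold 28056 of the 52147 nuclei in the series, 14935 from ent-1KO and 13121 from ent-1KO;ent-2KD. The other 2 libraries, the N2 wild type on L4440 bacteria (ctrl) and the CRISPR deletion mutant ent-2KO, ent-2(rax75), on L4440 bacteria, both also day 1 adults, are given as reference. Nuclei were released from whole worms, sorted on a DNA dye and sequenced with the 10x Chromium 3′ assay, and what was counted are unique molecular identifiers (UMIs), each of which marks 1 captured transcript. The question is what a loss of ent-2 by RNAi adds to a worm that already lacks ent-1.

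ENT proteins, the SLC29 family of solute carriers, let nucleosides cross membranes down their gradient. Animal cells make nucleotides either from small precursors (de novo synthesis) or by recycling nucleosides and bases (salvage), and dividing cells need many of them for DNA. The somatic cells of an adult hermaphrodite have stopped dividing, whereas its germ cells have not. These pass from a stem cell pool through meiosis to become oocytes, and they are wrapped by the somatic gonadal sheath. When worms eat bacteria that make double-stranded RNA, the RNA is cut into small RNAs that guide Argonaute proteins to matching transcripts and can spread between tissues. RNAi lowers a transcript without deleting the gene, so this condition is a knockdown and not a second knockout.

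With 1 library on each side the variation between worm cultures is unknown, no test was possible and no p-value is given. Counts are compared after scaling to 1000000 UMIs per library or class (CPM) and as the log2 ratio of ent-1KO;ent-2KD to ent-1KO, with 0.5 UMIs added to each count. The 95% intervals in parentheses cover counting error only. Diet, culture, nuclei preparation and library cannot be told apart. The ent-1KO library held 32714922 UMIs (median 1758 per nucleus) and the ent-1KO;ent-2KD library 32120382 (median 1871). Transcripts of mitochondrial genes took 0.386% and 0.718% of UMIs, against 0.374% in ctrl and 0.298% in ent-2KO, and 61 barcodes (0.465% of the smaller library) occurred in both libraries. Nuclei of all 4 libraries were clustered together, and 27 of the 33 clusters were given a tissue class by how many markers of a tissue stood out. Another 4, with 624 nuclei of ent-1KO and 704 of ent-1KO;ent-2KD, stayed unnamed, and 1 was mixed. A class is therefore called germline-like, intestine-like and so on. One cluster with over 2 times the median share of ribosomal protein transcripts is called ribosomal-rich. In it 26 of 32 intestine markers stood out. Free RNA lies in every droplet. In germline-like nuclei the markers of other tissues stood at 56.0% of their whole-library level in ent-1KO and at 50.9% in ent-1KO;ent-2KD (median over the marker lists), and in the other 8 named classes compared at 27.6% to 84.3%. A class can thus hold UMIs of genes of other tissues, and their part in each ratio was not tested. Named classes were compared gene by gene, 10 in all, except embryo-like and coelomocyte-like nuclei, which had under 100 nuclei in 1 of the libraries. Unnamed and mixed clusters were not compared in this way.

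The targeted genes were examined first. In build WBcel235 the gene ent-1 (WBGene00001320) spans positions 11653417 to 11655470 of chromosome IV (minus strand), and ent-2 (WBGene00010701) spans 15601067 to 15603686 of the X chromosome (plus strand). Over all nuclei ent-1 was counted at 140.8 CPM in ctrl, 142.4 in ent-2KO, 16.7 in ent-1KO and 14.7 in ent-1KO;ent-2KD. Both libraries of the ent-1KO strain are far below the others, and between them the log2 ratio was −0.19 (−0.37 to −0.01). ent-2 was counted at 25.4 CPM in ctrl, 24.2 in ent-1KO, 9.02 in ent-2KO and 18.1 in ent-1KO;ent-2KD. Summed over all nuclei, the RNAi library thus lay below ent-1KO by a log2 ratio of −0.42 (−0.58 to −0.27), and above the deletion mutant. A 3′ tag counts a transcript whether or not a deletion lies elsewhere in it. The ratio was −0.39 with tissue classes weighted as in ent-1KO, but 0.27 when every nucleus was thinned to 500 UMIs, which turned its direction. The paper states that ent-1 and ent-2 are highly similar in coding sequence. Whether reads were assigned to the wrong gene of the pair, or the ent-2 RNAi also reached ent-1 transcripts, was not tested.

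**Figure D1:**
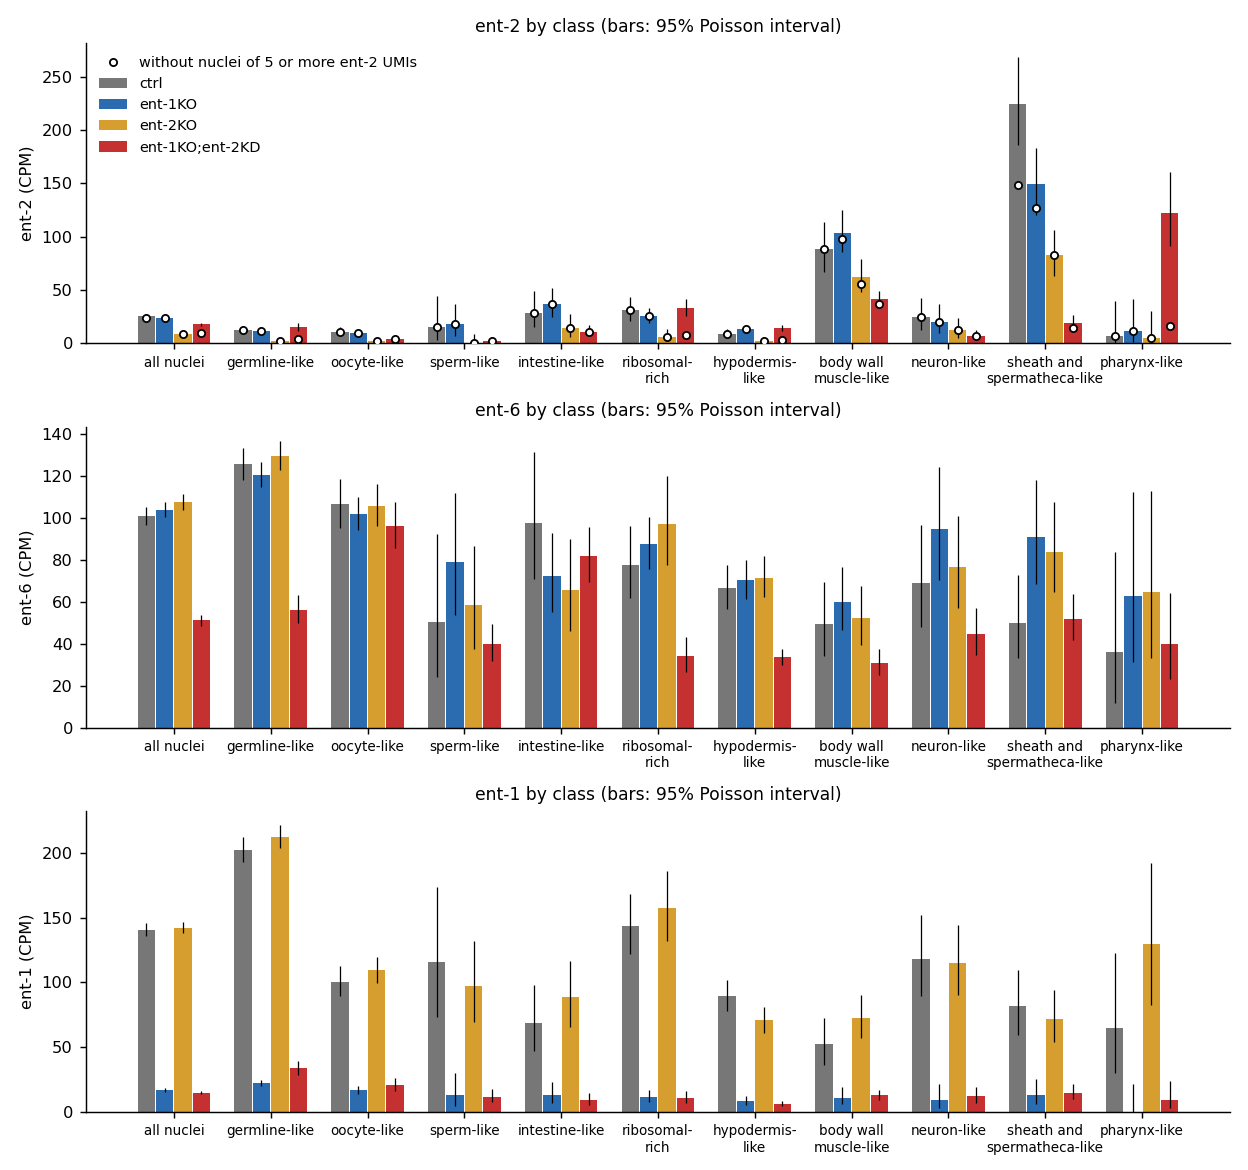
Levels of ent-2, ent-6 and ent-1 (CPM, with 95% Poisson intervals) over all nuclei and in each class, 1 library per group. White points give ent-2 without nuclei that hold 5 or more of its UMIs: in ent-1KO;ent-2KD over all nuclei the level is then 9.56 CPM in place of 18.1, while in ent-1KO it is 23.5 in place of 24.2.

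The ent-2 sum of the RNAi library came in large part from very few nuclei. Of 13121 nuclei, 300 (2.29%) held any ent-2 UMI, against 654 of 14935 (4.38%) in ent-1KO, 442 of 11666 (3.79%) in ctrl and 196 of 12425 (1.58%) in ent-2KO. Of these 300 nuclei, 266 held 1 UMI, 14 held 2, 3 held 3, 1 held 4 and 16 held 5 or more. Those 16 nuclei carried 273 of the 580 ent-2 UMIs, 47.1% of the total. In ent-1KO only 3 nuclei held 5 or more, with 21 of 791 UMIs (2.65%), in ctrl 6 nuclei with 41 of 534 UMIs (7.68%) and in ent-2KO 1 nucleus with 7 of 238 (2.94%). The limit of 5 UMIs was chosen after these counts were seen.

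The nuclei with many ent-2 UMIs were of another kind in the RNAi library than in the others. The 6 in ctrl were all in 1 gonadal sheath and spermatheca-like cluster, had 3141 to 11943 UMIs each and held at most 10 of ent-2. In ent-1KO, 2 were in that cluster and 1 was body wall muscle-like. The 16 in ent-1KO;ent-2KD were spread over 4 hypodermis-like, 4 germline-like, 3 ribosomal-rich, 2 pharynx-like, 1 body wall muscle-like and 1 gonadal sheath and spermatheca-like nuclei and 1 nucleus of a mixed cluster. The highest, a hypodermis-like nucleus, held 55 ent-2 UMIs among its 1249. The next, pharynx-like, held 27 among 938, and a germline-like nucleus held 17 among 514. Without nuclei of 5 or more ent-2 UMIs in either library, ent-2 stood at 23.5 CPM in ent-1KO and 9.56 in ent-1KO;ent-2KD, a log2 ratio of −1.3 (−1.5 to −1.11), beside 8.75 CPM in ent-2KO. These nuclei were left out by the count that is compared, and more of them in the RNAi library, which by itself lowers the ratio. Here and by class the value without them is a description of how the UMIs were spread, and the full sum stands beside it.

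By class, ent-2 was highest in the gonadal sheath and spermatheca-like and the body wall muscle-like nuclei of the worms without RNAi, and there the RNAi library stood well below. In gonadal sheath and spermatheca-like nuclei it was counted at 224.7 CPM in ctrl, 149.3 in ent-1KO, 82.7 in ent-2KO and 19.4 in ent-1KO;ent-2KD, a log2 ratio of −2.93, and the share of nuclei with a UMI was 16.9% (12.8 to 21.7) in ent-1KO and 3.23% (2.12 to 4.69) in ent-1KO;ent-2KD. In body wall muscle-like nuclei the levels were 103.9 and 42 CPM (log2 −1.31) and the shares 16.7% and 8.5%. In intestine-like nuclei 31 UMIs in ent-1KO stood against 22 in ent-1KO;ent-2KD, or 36.7 and 11.2 CPM (log2 −1.70, −2.57 to −0.88). Oocyte-like (−1.36), neuron-like (−1.54) and sperm-like nuclei (−2.83, from 7 and 5 UMIs) were lower too. In these classes the ent-1KO level was at or close to the free RNA level estimated below, so the ratios may compare background. Among the unnamed clusters, 1 held most of the ent-2 UMIs, with a UMI in 120 of 444 nuclei of ent-1KO and in 22 of 307 nuclei of ent-1KO;ent-2KD, or 61.9 and 17.5 CPM (log2 −1.80, −2.51 to −1.20). In it 6 of 27 embryo markers stood out, too few for a name. The 4 unnamed clusters together gave 157 of the 791 ent-2 UMIs of ent-1KO and 30 of the 580 of ent-1KO;ent-2KD.

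In 4 classes the sum of ent-2 was higher in the RNAi library, and in these the nuclei with 5 or more UMIs held most of it. Germline-like nuclei gave 11.4 CPM in ent-1KO and 15.3 in ent-1KO;ent-2KD (log2 0.42). In the RNAi library 4 nuclei held 59 of the 80 UMIs, and without such nuclei the log2 ratio was −1.48 (−2.25 to −0.84). Hypodermis-like nuclei gave 13.1 and 14.1 CPM (log2 0.10), with 88 of 115 UMIs in 4 nuclei and a log2 ratio of −1.97 (−2.73 to −1.25) without them. Ribosomal-rich nuclei gave 25.6 and 33 CPM (log2 0.36), with 50 of 66 UMIs in 3 nuclei and −1.65 (−2.58 to −0.86) without them. Pharynx-like nuclei gave 2 UMIs in ent-1KO and 52 in ent-1KO;ent-2KD (11.4 and 122.6 CPM, log2 3.11), with 45 of the 52 in 2 nuclei and 0.31 (−1.86 to 3.83) without them. The share of nuclei with an ent-2 UMI, to which each nucleus adds once, was lower in the RNAi library in 9 of the 10 classes: it was 2.21% and 0.86% in germline-like and 4.23% and 1.21% in hypodermis-like nuclei. Pharynx-like nuclei, with 0.943% (1 nucleus) and 3.63% (9 nuclei), were the exception. No class is known to lack ent-2, so a background share was not measured, but a level can be estimated. At the free RNA share of its class and the whole-library ent-2 level, free RNA alone would give 13.5 CPM in germline-like nuclei of ent-1KO, where 11.4 were counted, and 11.28 in oocyte-like nuclei, where 10.04 were counted. Pharynx-like nuclei of ent-1KO also lay at or below this level (14.4 and 11.4 CPM), and sperm-like nuclei were close to it (17.2 and 17.8 CPM). The estimate takes marker UMIs outside their own tissue as free RNA. In germline-like, oocyte-like, pharynx-like and sperm-like nuclei of ent-1KO, ent-2 expression could thus not be told apart from the free RNA level. Gonadal sheath and spermatheca-like (20.4 against 149.3 counted), body wall muscle-like (11.5 against 103.9) and intestine-like nuclei of ent-1KO (13.4 against 36.7) were above it. In ent-1KO;ent-2KD, oocyte-like, sperm-like and neuron-like nuclei lay below their level. Germline-like (9.19 against 15.3 CPM), hypodermis-like (7.92 against 14.1) and pharynx-like nuclei (11.2 against 122.6) lay above theirs. In these classes the nuclei with 5 or more UMIs held most of the sum. Intestine-like (8.94 against 11.2), gonadal sheath and spermatheca-like (13.5 against 19.4) and body wall muscle-like nuclei (9.2 against 42) also lay above theirs.

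The other family members differed from each other. ent-3 was highest in sperm-like nuclei. Over all nuclei it was counted at 4.98 CPM in ent-1KO and 31 in ent-1KO;ent-2KD (log2 2.63), while within sperm-like nuclei it was 359.5 and 423.4 CPM (log2 0.23), with ctrl at 468.2 and ent-2KO at 643.9. ent-5 was highest in oocyte-like nuclei, at 57.6 CPM in ent-1KO and 31.8 in ent-1KO;ent-2KD (log2 −0.85) beside −1.84 over all nuclei. It was lower within other classes too, at 8.65 and 1.53 CPM in germline-like, 10.03 and 2.33 in hypodermis-like and 26 and 2.28 in gonadal sheath and spermatheca-like nuclei. ent-6 (WBGene00009499, chromosome I, 9246028 to 9249358) was counted at 100.8, 104.02 and 107.7 CPM in ctrl, ent-1KO and ent-2KO and at 51.2 in ent-1KO;ent-2KD, a log2 ratio of −1.02 (−1.11 to −0.94). The lower level was found within germline-like nuclei (120.6 and 56.3 CPM, log2 −1.10), hypodermis-like (−1.07), neuron-like (−1.09), ribosomal-rich (87.5 and 34 CPM), sperm-like (79 and 40 CPM) and body wall muscle-like nuclei (−0.96), but not in oocyte-like (102.0 and 96 CPM, −0.09) or intestine-like nuclei (72.2 and 81.8 CPM, 0.17). ent-1 itself, low in both libraries, was higher with RNAi in germline-like nuclei, at 22 CPM in ent-1KO and 33.6 in ent-1KO;ent-2KD (log2 0.61). Whether reads of the similar gene ent-2 entered these ent-1 counts was not tested. ent-4 and ent-7 were counted at 2.84 and 4.89 CPM in ent-1KO and at 4.45 and 7.94 in ent-1KO;ent-2KD over all nuclei, below the minimum for a ratio to be counted. ent-7 passed in intestine-like (35.5 and 18.3 CPM, log2 −0.96, −1.70 to −0.21) and in gonadal sheath and spermatheca-like nuclei (51.9 and 26.8 CPM, −0.96), where it was lower with RNAi. Of the 9 nucleoside transporter genes listed, which add the concentrative transporters cnt-1 and cnt-2, 6 passed the minimum over all nuclei, with 2 past 2-fold higher (ent-3, cnt-1) and 2 lower (ent-5, ent-6), beside 19.6% of all genes higher and 15.3% lower.

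The make-up of the nuclei differed strongly. Germline-like nuclei were 42.2% (41.4 to 43) of ent-1KO and 19.5% (18.8 to 20.2) of ent-1KO;ent-2KD, against 47.9% in ctrl and 45.6% in ent-2KO. Oocyte-like nuclei were 14.2% and 6.85%. Embryo-like nuclei were 1006 (6.74%) in ent-1KO and 29 (0.221%) in ent-1KO;ent-2KD, with 9.96% in ctrl and 9.25% in ent-2KO. All 29 lay in 1 of the 3 embryo-like clusters. The other 2 clusters held 216 and 69 nuclei of ent-1KO and 0 of ent-1KO;ent-2KD, which allows a share of up to 0.0229%. Somatic classes had larger shares with RNAi. Hypodermis-like nuclei were 6.49% and 18.9%, body wall muscle-like 3.09% and 9.78%, neuron-like 2.73% and 8.10%, gonadal sheath and spermatheca-like 1.98% and 6.14%, and intestine-like 2.56% and 4.41%. Sperm-like nuclei were 1.42% and 4.54%.

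Because a larger share of 1 class lowers those of the others, nuclei were also counted per body wall muscle-like nucleus, a tissue of fixed cell number in adults. On this scale germline-like nuclei were 6.85-fold fewer in ent-1KO;ent-2KD than in ent-1KO (ratio 0.146, 0.130 to 0.164) and oocyte-like nuclei 6.54-fold fewer (0.153, 0.134 to 0.174). Embryo-like nuclei gave a ratio of 0.011 (0.0072 to 0.015). Sperm-like (1.01, 0.835 to 1.22), hypodermis-like (0.920, 0.808 to 1.05), neuron-like (0.936, 0.801 to 1.09) and gonadal sheath and spermatheca-like nuclei (0.978, 0.825 to 1.16) had intervals that include 1. Intestine-like nuclei gave 0.545 (0.461 to 0.644) and ribosomal-rich nuclei 0.298 (0.263 to 0.337). Not every somatic class stayed near 1 on this scale, as the intestine-like nuclei show, and the reason was not tested. These are the nuclei that were captured, and fewer cells cannot be told apart from a lower rate of recovery.

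**Figure D2:**
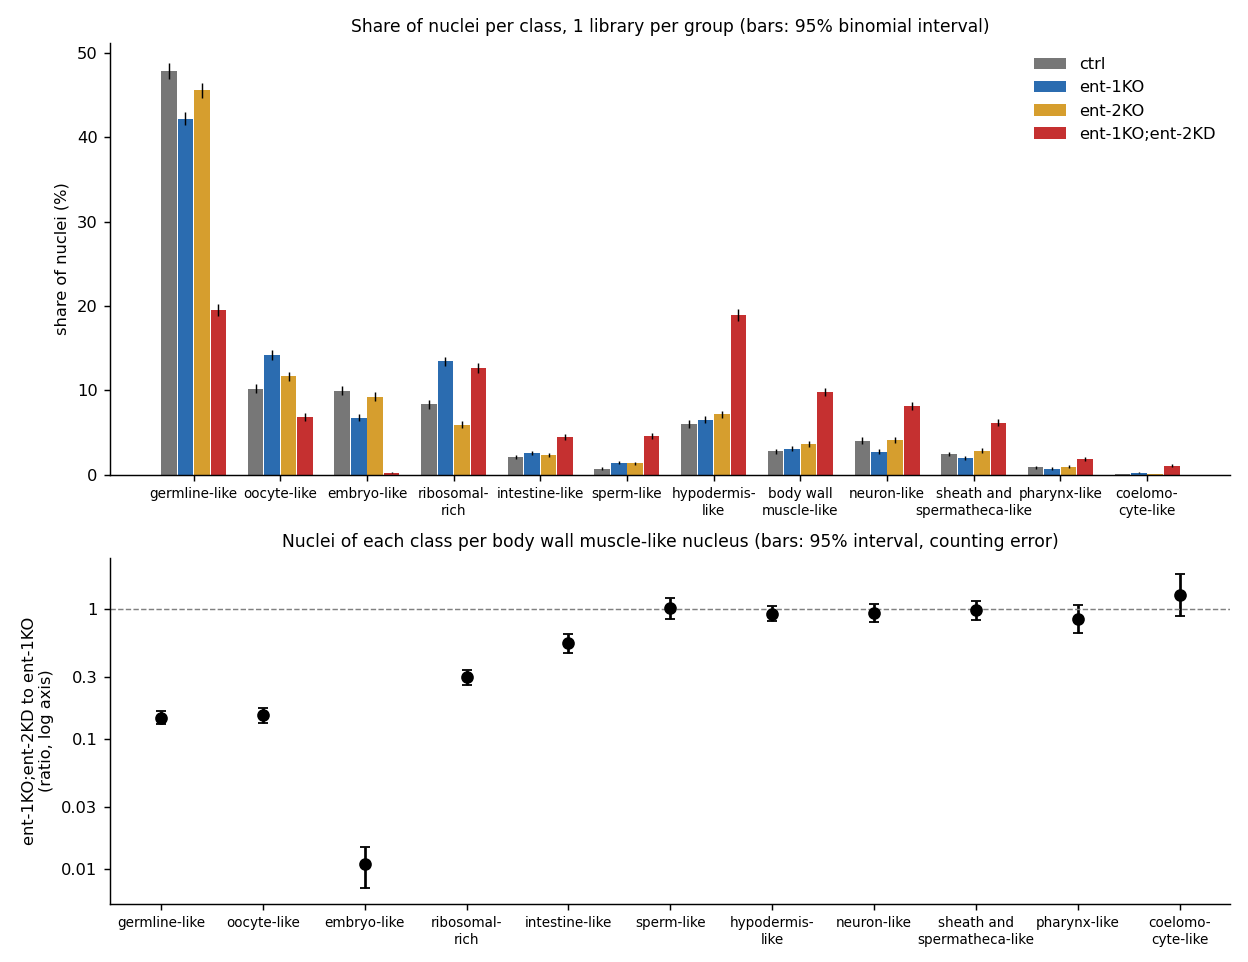
Top, share of nuclei (%) per class in the 4 libraries with 95% binomial intervals. Bottom, ratio of ent-1KO;ent-2KD to ent-1KO in the number of nuclei per body wall muscle-like nucleus (log axis, 95% intervals): sperm-like nuclei sit at 1.01, germline-like at 0.146 and embryo-like at 0.011.

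Summed over all nuclei, the marker genes of the tissues followed these shares. A gene was counted where it reached 20 CPM in 1 of the 2 libraries and 50 UMIs over both, and was called past 2-fold by size alone. Of 8119 genes, 1591 (19.6%) were at least 2-fold higher in ent-1KO;ent-2KD and 1240 (15.3%) at least 2-fold lower, around a median log2 ratio of −0.19. With median-of-ratios scaling, which sets that median near 0, the split was 1909 higher and 856 lower. By the same rule ent-1KO differed from ctrl in 24 genes upward (0.336%) and 38 downward (0.533%) of 7135. Of 34 germline markers, 16 were past 2-fold lower and none higher, and of 34 sperm markers 23 of the 25 that passed were higher (median 1.89). Of 27 body wall muscle markers 24 passed and 19 were higher. With the classes weighted as in ent-1KO, 185 genes were higher and 441 lower. In bulk sums, fewer cells of a type and less RNA per cell cannot be told apart, and the accounts that follow are of sums within a class.

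**Figure D3:**
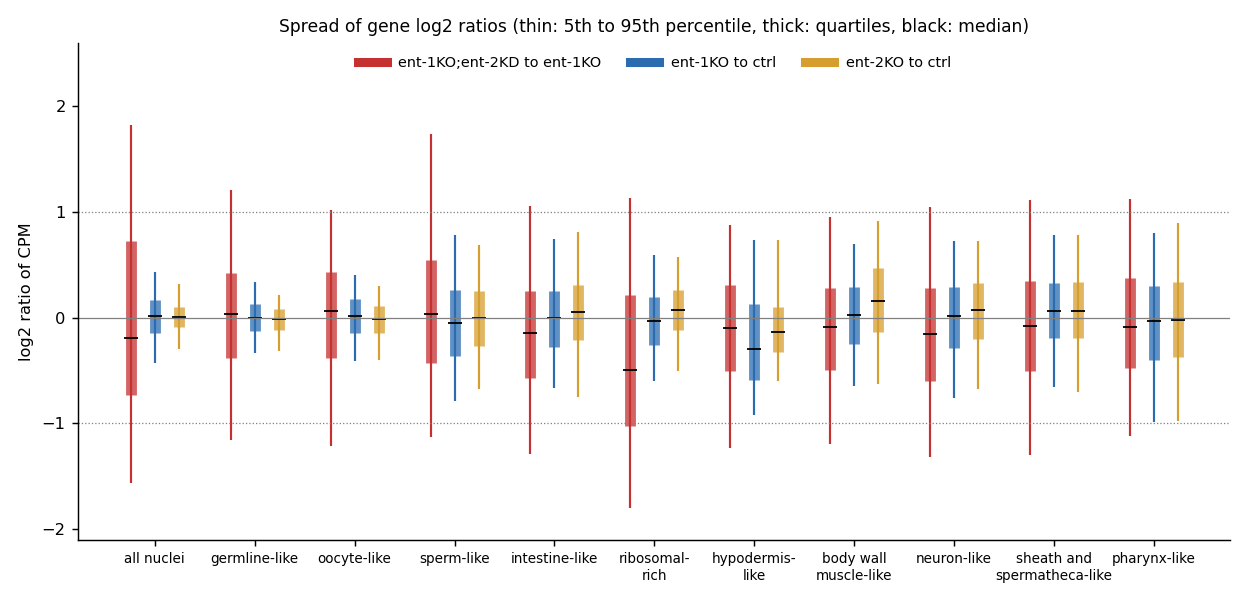
Log2 ratios of gene CPM for the 3 comparisons, over all nuclei and in each class, with the median (black), quartiles (thick) and 5th to 95th percentiles (thin). In germline-like nuclei the 5th and 95th percentiles are −1.15 and 1.21 for ent-1KO;ent-2KD to ent-1KO, and −0.34 and 0.34 for ent-1KO to ctrl, which share the ent-1KO library.

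Few genes differed in the same direction in every class. Of 1948 genes that passed the minimum in all 10 classes compared, 3 (0.154%) were at least 2-fold higher in each and 18 (0.924%) at least 2-fold lower in each. T22B7.7 (chromosome X, 5651865 to 5654074) was counted over all nuclei at 4.14, 6.05 and 7.01 CPM in ctrl, ent-1KO and ent-2KO and at 224.8 CPM in ent-1KO;ent-2KD (log2 5.21, 5.01 to 5.43). Within ent-1KO;ent-2KD it was highest in hypodermis-like nuclei, at 362.8 CPM against 23.7 in those of ent-1KO, and its log2 ratio ran from 3.12 in body wall muscle-like to 6.38 in intestine-like nuclei. The other 2 higher genes were lys-2, a lysozyme gene (51.1 and 169.4 CPM over all nuclei), and ugt-41, of the UDP-glucuronosyltransferases that conjugate toxins and hormones (73.7 and 598.3 CPM). ugt-41 had its highest level in hypodermis-like nuclei (578.1 and 1809 CPM in hypodermis-like nuclei), and its log2 ratio was 1.65 there beside 3.94 in intestine-like nuclei (50.9 and 791.9 CPM).

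The lowest of the genes that were lower in every class was C05D9.12 (WBGene00219800), a non-coding RNA gene on chromosome X from 1107079 to 1107207. Over all nuclei it was counted at 1699.7 CPM in ctrl, 1710.5 in ent-1KO and 1449 in ent-2KO, and at 36 in ent-1KO;ent-2KD, which is 47.5-fold lower than in ent-1KO. The log2 ratio was −5.49 in germline-like nuclei (2259 and 50.4 CPM) and lay between −5.49 and −4.53 in all 10 classes, so that no class kept the level of the other 3 libraries. Others with known roles were cpg-3, an eggshell proteoglycan gene (448.1 and 53.4 CPM, log2 −3.07), hcp-3, the centromeric histone H3 (366.2 and 70.5 CPM, −2.38), fib-1, the nucleolar RNA methyltransferase fibrillarin (1061 and 235.7 CPM, −2.17), wago-2 (an Argonaute pseudogene in the annotation), the chaperone genes sip-1 and daf-41 and the germline lincRNA linc-7. Of the 18, each had its highest class level in germline-like, oocyte-like or ribosomal-rich nuclei, and the part of free RNA in the other classes was not tested. Within germline-like nuclei alone the log2 ratios were −3.36 for cpg-3, −1.99 for hcp-3, −1.74 for fib-1 and −1.90 for linc-7.

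In germline-like nuclei 6015 genes passed, of which 452 (7.51%) were at least 2-fold higher and 411 (6.83%) lower, around a median of 0.03. Between ent-1KO and ctrl the counts were 11 (0.194%) and 5 (0.0882%) of 5671. Genes at 50% or more of their highest class level in germline-like nuclei, 4589 in all, divided into 100 higher (2.18%) and 339 lower (7.39%). The highest ratio was that of R03H10.6, counted at 0.57, 0.71 and 0.76 CPM in ctrl, ent-1KO and ent-2KO and 29.4 in ent-1KO;ent-2KD (log2 5.30). AC8.1, a pseudogene on chromosome X, stood at 15.1, 16.8, 16.9 and 134.3 CPM (2.99), and H11L12.1, also on X, at 13.1 CPM in ent-1KO and 77.4 in ent-1KO;ent-2KD (2.56). cya-2, of the cyclin A family, had 7.08 and 39.5 CPM (2.48), with ctrl at 11.4 and ent-2KO at 11. dct-10 (3.79), F49F1.8 (2.77), C56G7.3 (13.8 and 66.2 CPM), T16G12.12 (2.23), H05C05.2 (2.23) and spg-20 (2.19) complete the 10 highest. All 10 were above the other 3 libraries in ent-1KO;ent-2KD, as the choice of these genes required.

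**Figure D4:**
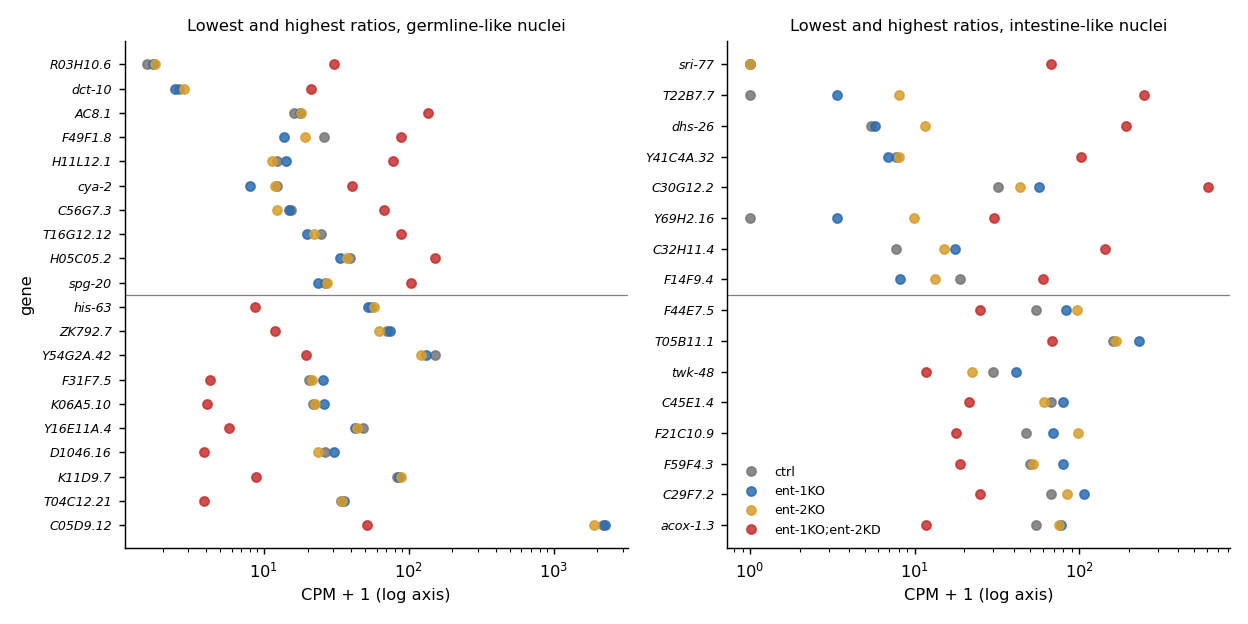
CPM + 1 (log axis) of the genes with the lowest and the highest ratio of ent-1KO;ent-2KD to ent-1KO in germline-like (left) and intestine-like nuclei (right), 1 point per library. C05D9.12 lies near 2000 CPM in 3 libraries and at 50.4 CPM in ent-1KO;ent-2KD.

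Below C05D9.12, the lowest germline genes included further non-coding RNAs: T04C12.21 (34.9 and 2.86 CPM, log2 −3.56), K11D9.7 (85.3 and 7.82 CPM, −3.43), K06A5.10 (25.17 and 3.05 CPM) and F31F7.5 (−2.89). Protein-coding genes among them were D1046.16 (29.6 and 2.86 CPM, −3.32), Y16E11A.4 (−3.09), ZK792.7 (73.0 and 10.9 CPM) and the core histone gene his-63 (51.2 and 7.63 CPM, −2.73). Of 72 histone genes 14 passed, and 8 of them were lower and 3 higher (median −1.38). The lower ones were his-63, his-61, his-68, his-60, his-62, his-48, his-64 and his-59. Core histone genes have near-identical copies among which reads may have been divided, so that single members are uncertain. The higher ones were his-37, his-41 and his-72, an H3.3 variant that is made outside S phase. The median of the histone list was also below −1 in oocyte-like (−1.17) and ribosomal-rich nuclei (−1.93).

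The germline lists differed among themselves. In germline-like nuclei the list of P granule and small RNA pathway genes, which hold germline RNA in perinuclear granules and silence transposons, had 26 members that passed, 6 lower and none higher, with a median of −0.52. Its lower members were prg-2, a pseudogene in the annotation close to the piRNA Argonaute gene prg-1 (495.7 and 160.8 CPM, log2 −1.62), pgl-1, hrde-1, wago-4, csr-1 and glh-4. Homolog pairing and synaptonemal complex genes had 1 of 27 past 2-fold, sun-1 at −1, and a median of −0.28. Meiotic recombination genes had none of 28 (median 0.08), genes for DNA replication and ribonucleotide reductase none of 36 (median 0.08), and the stem cell and meiotic entry genes 1 of 20, fbf-2, an RNA-binding regulator of stem cells, at −1.24 (median −0.04). Mitotic cell cycle genes had 1 of 30, hcp-3 (median −0.16). egl-1, the BH3-only gene that starts programmed cell death, was counted at 4.01 CPM in ent-1KO and 27.3 in ent-1KO;ent-2KD (log2 2.76), with 2.05 in ctrl and 2.09 in ent-2KO, while the apoptosis and DNA damage list as a whole had 1 higher and 1 lower of 22 (median 0.16).

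Genes of nucleotide metabolism were mostly above the germline median without passing 2-fold. Of 10 genes for de novo purine synthesis, 6 passed and none was past 2-fold, with a median of 0.45. The highest was adsl-1, adenylosuccinate lyase, at 55.6 CPM in ent-1KO and 98 in ent-1KO;ent-2KD (log2 0.82). Of the purine salvage and breakdown genes 8 passed with a median of 0.65, adah-1 (1.19), an adenosine deaminase gene, and ampd-1, AMP deaminase, were past 2-fold higher, and ndk-1, a nucleoside diphosphate kinase gene, was lowest at −0.82. Of the pyrimidine genes 12 passed (median 0.49), with dpyd-1 (1.21) and dhp-1, both of uracil breakdown, higher and cdd-2, a cytidine deaminase gene, lower (−1.55). At resolutions 0.4 and 1.6 dhp-1 was among the leading genes of hypodermis-like clusters. Hypodermis-like nuclei held 10.1% of UMIs in ent-1KO and 25.4% in ent-1KO;ent-2KD. The part of free RNA in the germline count of dhp-1 was not tested. Nor was it tested for adah-1, ampd-1, dpyd-1 and adsl-1, or for the germline medians of the purine and pyrimidine lists. These ratios are therefore of UMIs counted in germline-like nuclei, whichever tissue the transcripts came from. In intestine-like nuclei the medians were −0.09 for de novo purine synthesis, −0.06 for purine salvage and −0.13 for the pyrimidine list, and none of the 10 and 11 purine genes that passed there was past 2-fold. Genes of the RNAi machinery itself had 22 members that passed in germline-like nuclei (median −0.07), with drh-2, a Dicer-related helicase pseudogene in the annotation, at 1.84 and ppw-1, an Argonaute needed for RNAi in the germline, at −1.40.

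Markers of other tissues were among the genes higher in germline-like nuclei. The markers of neurons (4 of 7 that passed higher, median 1.18), body wall muscle (3 of 17, median 0.72) and hypodermis (4 of 12, median 0.59) stood above 0 there, as over all nuclei, where their shares of the library were larger. Their part in the germline counts was not tested. Genes of the X chromosome, which is largely silent in the germline, had a median log2 ratio of 0.77 over 258 genes, 97 of them past 2-fold higher and 23 lower, while the medians of the 5 autosomes lay between −0.03 and 0.04. This was not confined to germline-like nuclei: the X median was above that of every autosome in each of the 10 classes and over all nuclei (0.66), from 0.03 in body wall muscle-like to 0.77 in germline-like nuclei, with 0.69 in sperm-like and 0.54 in ribosomal-rich nuclei. The X nevertheless took 4.67% of germline-like UMIs in ent-1KO and 4.25% in ent-1KO;ent-2KD, with 4.11% in ctrl and 3.78% in ent-2KO. C05D9.12 and linc-7, both on X and both lower, are counted in these shares. The X medians, in contrast, are of genes that reached the minimum level in either library. Genes near silent in ent-1KO could enter only by their level in ent-1KO;ent-2KD, which favours higher ratios. Genes near silent in ent-1KO;ent-2KD could enter only by ent-1KO, which favours lower ones. The part of this selection in the X medians was not tested.

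In oocyte-like nuclei 343 of 6468 genes were higher (5.3%) and 495 lower (7.65%), around a median of 0.06. Besides C05D9.12 (1876 and 60.4 CPM, log2 −4.95) the lowest genes included wdr-60 (60.7 and 4.72 CPM, −3.64) and T07F8.1 (71.7 and 9.13 CPM, −2.95), and the highest F53F8.6 (4.48 and 39.7 CPM, 3.13), the pseudogene rac-3 (23.2 and 102.3 CPM, 2.14) and F33H2.3 (42.8 and 162.5 CPM, 1.92). Of 35 genes for oocyte maturation and the eggshell all passed, with 2 lower, cpg-3 (1141 and 215.0 CPM, −2.41) and lin-41 (−1.26), a regulator that holds oocytes in prophase, and none higher (median 0.05). pos-1 was the highest of them at 0.83.

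Sperm-like nuclei, 212 in ent-1KO and 596 in ent-1KO;ent-2KD, gave 1000 higher (12.8%) and 516 lower (6.63%) of 7783 genes. Of 33 sperm markers that passed, 1 was higher (spe-42, log2 1.97) and 1 lower (msp-49, −1.08), with a median of −0.25 where over all nuclei the median was 1.89. R09E10.2 had 12.7 CPM in ent-1KO and 207.8 in ent-1KO;ent-2KD (3.89), and hsp-4, the chaperone BiP of the endoplasmic reticulum, had 584.0, 530.3 and 442.2 CPM in ctrl, ent-1KO and ent-2KO against 176.1 (−1.59).

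In intestine-like nuclei 410 of 7284 genes were higher (5.63%) and 684 lower (9.39%), around a median of −0.14. With median-of-ratios scaling the counts were 518 and 510. Among the 2948 genes with 50% or more of their highest class level here, 189 were higher (6.41%) and 61 lower (2.07%). sri-77, named after chemoreceptors, had 0 UMIs in ctrl, ent-1KO and ent-2KO and 131 in ent-1KO;ent-2KD (66.6 CPM), at least 18.8-fold higher than the 3 UMIs per library that a count of 0 allows. C30G12.2 was counted at 31.1, 55.6 and 42.5 CPM in ctrl, ent-1KO and ent-2KO and at 601.8 in ent-1KO;ent-2KD (log2 3.42). dhs-26, of the short-chain dehydrogenases, had 4.73 and 190.6 CPM (5.16), Y41C4A.32 5.91 and 101.7 (3.97), and C32H11.4 16.6 and 142.8 (3.06). The lowest was acox-1.3, of the acyl-CoA oxidases that shorten fatty acids in peroxisomes, at 53.4, 76.9 and 74.3 CPM in ctrl, ent-1KO and ent-2KO and 10.7 in ent-1KO;ent-2KD (−2.83). C29F7.2 (106.5 and 23.9 CPM, −2.15) and T05B11.1 (230.7 and 67.1 CPM, −1.78) were further genes lower there.

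The intestinal lists had medians near 0. The 6 yolk protein genes, whose products feed the oocytes, all passed with a median of 0.02 in intestine-like nuclei, although they were at 0.54 in germline-like and 1.05 in gonadal sheath and spermatheca-like nuclei. Of 30 intestine markers that passed, 2 were higher, ftn-1, a ferritin gene (2.62), and mtl-2, a metallothionein gene (1.71), with a median of 0.02. Of the genes linked to germline loss and fat metabolism, 1 of 22 was past 2-fold, the fatty acid desaturase gene fat-5 (2.57). UDP-glucuronosyltransferase genes had 7 higher (ugt-41, ugt-25, ugt-28, ugt-53, ugt-26, ugt-62 and ugt-19) and 1 lower, ugt-65, of 34. Ribosomal-rich nuclei, which carry intestine markers too, had the highest share of genes past 2-fold of the classes, with 466 of 6729 genes higher (6.93%) and 1755 lower (26.1%) around a median of −0.50. There C32H11.4 had 24.3 and 306.2 CPM (3.64), asm-3, an acid sphingomyelinase gene, 18.6 and 144.1 (2.94), pud-4 28.7 and 147.6 (2.35) and pud-3 30.9 and 139.6 (2.17), while his-63 had 100.3 and 8.01 (−3.61).

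In hypodermis-like nuclei, the skin, 238 of 7070 genes were higher (3.37%) and 611 lower (8.64%), around a median of −0.10, while ent-1KO itself differed from ctrl there in 2.1% of 7206 genes upward and in 3.21% downward. dhs-26 (chromosome X, 3360722 to 3362493) had the largest log2 ratio of all genes named, 7.21, from 4.43 CPM in ctrl, 1.52 in ent-1KO, 13.7 in ent-2KO and 247.9 in ent-1KO;ent-2KD. F56D6.8 (5.78 and 60.1 CPM, 3.35) and its neighbour in name F56D6.9 (10.9 and 58.2 CPM, 2.39), T20D4.3 (10.6 and 77.6 CPM, 2.85), F57G8.7 (15.5 and 92.4 CPM, 2.56), txt-11 (2.19) and the cytochrome P450 gene cyp-34A2 (5.17 and 24.4 CPM) were also high. ugt-9, of the same family as ugt-41, was lower, at 38 and 6.87 CPM (−2.46), with ctrl at 37.5 and ent-2KO at 46.2. Of 95 collagen genes that passed, 6 were lower, among them bli-2, sqt-2 and sqt-3, and 1 higher, col-153, with a median of −0.24. Their summed level was 192364 CPM in ent-1KO and 147837 in ent-1KO;ent-2KD, with 118631 in ctrl and 145929 in ent-2KO. ent-1KO was thus the highest library and ctrl the lowest.

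In body wall muscle-like nuclei 311 of 6870 genes were higher (4.53%) and 564 lower (8.21%), around a median of −0.09. The genes of the contractile apparatus, 33 sarcomere genes, all passed with none past 2-fold and a median of 0.06. The clearest single gene was acdh-9, an acyl-CoA dehydrogenase of mitochondrial fatty acid and amino acid breakdown, at 441.2, 455.6 and 407.4 CPM in ctrl, ent-1KO and ent-2KO and 63.9 in ent-1KO;ent-2KD (log2 −2.83). plpp-1.2, a lipid phosphate phosphatase gene, had 90.2 and 12.6 CPM (−2.83), and the non-coding RNA C49F8.6 99.3 and 15 (−2.72). The pseudogene gcp-2.3 had 0.91 and 33.6 CPM (4.63). pks-1 (52.8 and 352.5 CPM, 2.73), at 225.8 in ctrl and 499.6 in ent-2KO, was a gene whose ratio came from a low level in ent-1KO.

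In neuron-like nuclei 370 of 6717 genes were higher (5.51%) and 717 lower (10.7%), around a median of −0.15. Here too ent-1KO often stood apart. zig-2, of the secreted immunoglobulin-domain proteins of neurons, had 30.5 CPM in ctrl, 707.2 in ent-1KO, 47.5 in ent-2KO and 123.6 in ent-1KO;ent-2KD (log2 −2.51), and the neuropeptide gene pdf-2 had 97.6, 627.4, 90.4 and 125.7 (−2.32). Of the genes for FMRFamide-like peptides, 10 of 26 were lower and none higher, with a summed level of 17307 CPM in ent-1KO and 5847 in ent-1KO;ent-2KD, but 8824 in ctrl and 7784 in ent-2KO. Of the neuropeptide-like protein genes 14 of 43 were lower and 4 higher. flp-12 (298.9, 360.1 and 257.4 CPM in ctrl, ent-1KO and ent-2KO, 106.8 in ent-1KO;ent-2KD, −1.75) and nlp-6 (624.2, 473.3, 631.3 and 134.8 CPM, −1.81) were lower than in all 3 other libraries. The processing enzyme genes sbt-1 (−1.41), pgal-1 and egl-21 were past 2-fold lower, while the list of vesicle release and neuropeptide processing genes had a median of 0.06.

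Gonadal sheath and spermatheca-like nuclei, the class with the highest ent-2 level, gave 454 of 7128 genes higher (6.37%) and 675 lower (9.47%), around a median of −0.08. The estimate of free RNA was highest here, at 84.3% in ent-1KO and 74.9% in ent-1KO;ent-2KD. Markers of other tissues that cells of this class express themselves would raise the estimate, and their part was not tested. Several genes counted mainly in this class were far lower with RNAi. C27A7.8 had 280.4, 186.6 and 351.9 CPM in ctrl, ent-1KO and ent-2KO, 115 UMIs of it in ent-1KO, and 0 UMIs in ent-1KO;ent-2KD, at least 109-fold lower with the 3 UMIs that a count of 0 allows. The pseudogene nep-14 had 907.1 CPM in ent-1KO and 12 in ent-1KO;ent-2KD (log2 −6.21), C13G3.1 970.3 and 47.3 (−4.35), ddo-3 1079 and 64.9 (−4.05) and C46C2.5 962.2 and 91.1 (−3.40). The class joins clusters with different leading genes. nep-14 was among those of a cluster also led by ule-2 and ule-4, and C13G3.1 among those of another. C46C2.5 led a cluster with ule-1, in which 9 of 23 markers of the class stood out. In which cells of the class these genes were lower was not tested. Of the 22 markers of the class that passed, 1 was higher (ets-4, 1.26) and 3 lower, with a median of 0.27. Among those lower were inx-8 (−1.76) and inx-9, whose innexin channels join sheath cells to germ cells. cri-1 (6.49 and 69.5 CPM, 3.26) and acd-1, of the degenerin sodium channels (1.62 and 35.9 CPM, 3.89), were among the highest.

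Pharynx-like nuclei were the smallest class compared, with 160 of 2461 genes higher (6.5%) and 180 lower (7.31%). The ratios depended much on ent-1KO: F14D2.19 had 0 UMIs in ctrl and ent-1KO;ent-2KD, but 1058 CPM in ent-1KO and 539.2 in ent-2KO. Y8A9A.2 (107.9, 28.6, 107.8 and 339.5 CPM, log2 3.44) and F23H11.6 (43.1, 22.9, 75.5 and 186.3 CPM, 2.86) were highest with RNAi. cnt-2, a concentrative nucleoside transporter gene, had 884.5, 1098 and 717.1 CPM in ctrl, ent-1KO and ent-2KO and 405.5 in ent-1KO;ent-2KD (−1.44).

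**Figure D5:**
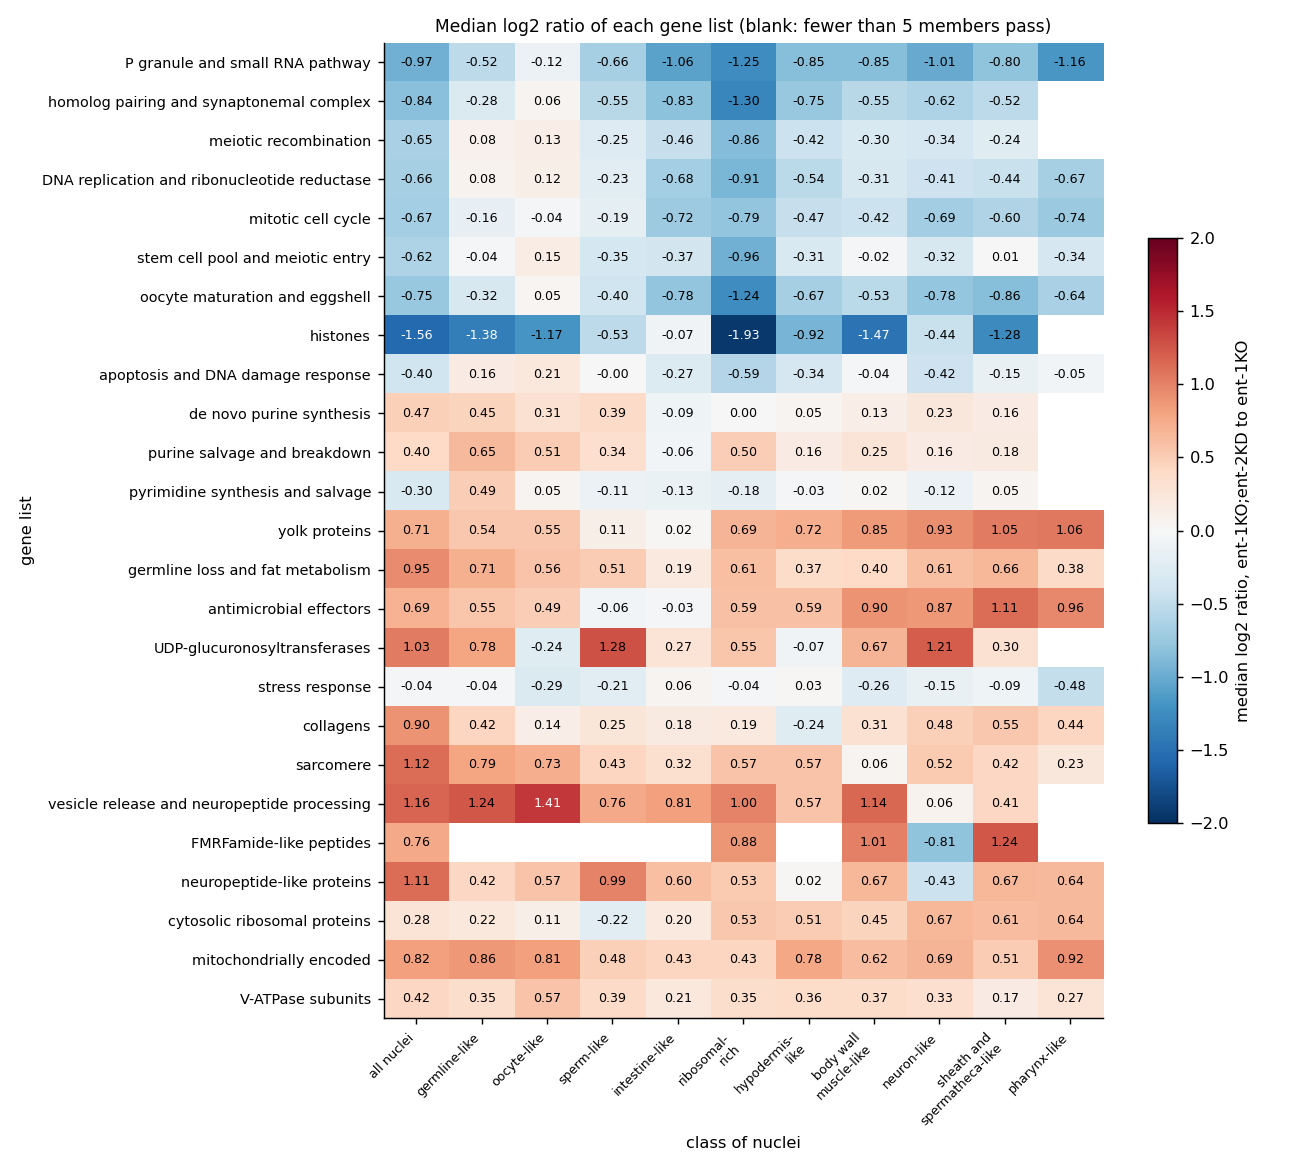
Median log2 ratio of each gene list (rows) over all nuclei and in each class (columns). Values in the cells are medians, red above and blue below 0. Mitochondrially encoded genes lie between 0.43 and 0.92 in every column, and histones at −1.38 in germline-like nuclei.

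Some lists leaned one way across classes. The 14 mitochondrially encoded transcripts, which are not of nuclear origin, had medians from 0.43 in intestine-like and ribosomal-rich to 0.92 in pharynx-like nuclei, and ctc-1, of cytochrome c oxidase, had a log2 ratio of 1.59 in germline-like and 1.71 in oocyte-like nuclei. Cytosolic ribosomal protein genes had medians of 0.22 in germline-like, 0.51 in hypodermis-like and 0.67 in neuron-like nuclei, but −0.22 in sperm-like nuclei. Within that list rpl-25.1 was past 2-fold higher in 9 of the 10 classes, sperm-like nuclei (0.66) being the exception. rpl-11.1 was past 2-fold lower in intestine-like (−1.39), hypodermis-like (−1.25), neuron-like (−1.05) and 4 other classes, and rpl-11.2 past 2-fold higher in germline-like (1.01), hypodermis-like (1.14) and 3 other classes. Reads may be divided among such paralogs, so that these ratios are uncertain. V-ATPase subunit genes, which acidify lysosomes, had medians from 0.17 to 0.57 in every class.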

How the data were processed

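Single-nucleus libraries, 1 per condition, were aligned and counted by the authors with Cell Ranger (6.0 in the submitters' processing notes, 6.1.2 in the matrix headers), and the deposited values are raw UMI counts for 46926 genes per barcode. The authors' methods state that doublets were removed with DoubletFinder. All deposited barcodes, fewer than the nuclei the study states to have kept, were used here, from 500 UMIs upward. Barcodes of all 4 libraries were integrated and clustered with Seurat 5.3.0 (R 4.3.3; CCA, 2000 variable genes, 30 dimensions, resolution 0.8). A cluster took the name of the tissue with the largest share of its measured markers 2-fold above the median over clusters. At least 5 markers and at least 30% of those measured had to stand out. No other tissue could have more markers among the 10 leading genes of the cluster, those furthest above the median. Clusters that failed this stayed unnamed. A named cluster was called mixed when at least 3 of its leading genes also led clusters of another class. It then also had to hold more UMIs per nucleus than those. A cluster was called ribosomal-rich when its share of UMIs from ribosomal protein genes was over 2 times the median over clusters. These naming limits were set with the clusters in view, and the members, markers and gene lists were chosen with earlier results of these data known. UMIs were summed per class and library (Python 3.11.15, numpy 2.4.6, scipy 1.17.1, pandas 2.3.3) and divided by the class total to give CPM. Ratios used 0.5 added UMIs and an exact conditional binomial interval, shares a Clopper-Pearson and levels a Poisson interval, all at 95% and for counting error only. Genes needed 20 CPM in 1 of the libraries and 50 UMIs over both. A count of 0 was taken to allow 3 UMIs or nuclei. Coordinates are of WBcel235, whose annotation matched all 46926 genes.

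The genes named are the 10 highest and 10 lowest ratios over all nuclei and in germline-like nuclei and the 8 highest and 8 lowest in the other classes, among genes whose level in ent-1KO;ent-2KD lies outside that of the other 3 libraries and is at least 50% of the highest class level, besides the 5 largest ratios per class in which ent-1KO lies outside, the ent genes, and list members past 2-fold or at either end. Genes present in every class were named after their values were seen. On simulated counts for germline-like nuclei (5664 genes, 200 of them altered) 100% of altered genes and 0% of the others came out past 2-fold. For intestine-like nuclei (6995 genes, 200 altered) the shares were 98% and 0.193%. All altered genes were set beyond 2-fold, and the simulated counts varied by counting error alone. These shares therefore give no rate of false calls between cultures or libraries. Alternatives were other resolutions, placement of nuclei by their own markers, nuclei of 1000 or more UMIs, removal of doublets scored with scanpy 1.11.5, median-of-ratios scaling, thinning to 500 UMIs, other minimums, 5 CPM added and subtraction of free RNA. Those chosen after seeing the data were other groupings or weights of classes and the removal of nuclei with 5 or more ent-2 UMIs.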

Additional observations from a re-analysis of the deposited data

Results flagged for a closer look

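The ratio of ent-2 between ent-1KO;ent-2KD and ent-1KO had opposite directions in different classes of the same pair of libraries. It was −2.93 on the log2 scale in gonadal sheath and spermatheca-like nuclei and 3.11 in pharynx-like nuclei. The difference was not tested, since each side is 1 library. In pharynx-like nuclei 45 of the 52 ent-2 UMIs of ent-1KO;ent-2KD lay in 2 nuclei.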

How the results depend on the processing

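Germline-like nuclei had a lower share in ent-1KO;ent-2KD than in ent-1KO under each clustering and filter tried. The shares (ent-1KO first) were 32.3% and 13.5% at resolution 0.4, 43.6% and 21.9% at resolution 1.6, 30.8% and 7.80% with each nucleus placed by its own markers, 45.3% and 20.6% among nuclei with at least 1000 UMIs and 56.4% and 26.3% with oocyte-like clusters counted in. The log2 ratio over all nuclei of ent-1 was 0.0089 with median-of-ratios scaling, 0.23 after thinning to 500 UMIs and 0.43 with classes weighted as in ent-1KO. That of ent-2 was −0.23 with median-of-ratios scaling, 0.27 after thinning and −1.3 without nuclei of 5 or more ent-2 UMIs. Both genes thus had ratios of either sign. Counts of genes past 2-fold depended on the minimum: with 10 UMIs over both libraries and no CPM limit, 6626 were higher and 2906 lower over all nuclei, 3153 and 1583 in germline-like and 1214 and 1432 in intestine-like nuclei. In intestine-like nuclei 134 were higher and 141 lower after thinning, 795 were higher with nuclei placed by their own markers, 269 were lower with free RNA subtracted, and 737 and 1421 were past 2-fold with ribosomal-rich nuclei counted in. With classes weighted as in ent-1KO, 185 genes were higher and 441 lower over all nuclei. Of 1996 values of 260 single-gene results under an alternative, 241 moved beyond their counting interval and 2 of those past 2-fold as reported turned direction: Y57G11B.5 in gonadal sheath and spermatheca-like nuclei (1.56 as reported, −0.28 at resolution 0.4) and col-135 over all nuclei (1.24 as reported, −0.0272 with classes weighted as in ent-1KO). The causes were not tested. No paired analysis was possible because each condition has 1 library, and for the same reason no library could be left out. In pharynx-like nuclei the ent-2 ratio rests on 2 UMIs in ent-1KO.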
